A study of Mus musculus with 6 samples.

Results

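The genes described here encode proteins of the cytosolic ribosome in mouse pre-B cells that were transformed by BCR-ABL1 and then given the transcription factor Ikaros. They were taken by symbol: a gene entered if a probe set with a single gene symbol carried an Rpl or Rps number, with or without a trailing a, l or x, or was Rplp0, Rplp1, Rplp2 or Rpsa, leaving out the Rps6k kinases and names marked as pseudogenes. Of 19936 genes tested, 59 met the rule, 37 of the large subunit and 22 of the small subunit. The rule reads symbols alone, although it was set with earlier results of these data known. The brightest probe set stood for each gene, and 24 further genes whose RefSeq symbols meet the rule, among them Rpl3, Rpl11, Rps24, Rps26 and Rps27a, had no probe set with 1 symbol and were not analysed here by name.

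The cells were wild-type C57Bl6 pre-B cells from mice aged 4 weeks, and both groups carried the oncogene BCR-ABL1, a tyrosine kinase fusion found in Philadelphia-positive leukaemia. They received either pMIG, a retroviral vector with a fluorescent marker (GFP), or pMIG-IKZF1, which adds the gene of Ikaros, a zinc finger factor. RNA was taken 3 days after transduction from sorted GFP-positive cells and hybridised to Affymetrix arrays, 3 per group, numbered 1 to 3 as in the sample titles. Whether the replicates were independent cultures or mice is not given in the labels, so the p-values reflect the spread among these samples alone, which may be technical, and the precision is limited by the number of arrays. The transduced gene, Ikzf1, had a 2.34-fold higher level in the IKZF1 samples (limma adjusted p = 0.0021). The 11 pre-B markers measured had mean log2 levels from 7.08 (Rag2) to 13.77 (Igll1) and log2 differences from -0.62 (Dntt) to 0.76 (Rag1). Of these 11, 0 were past the threshold in limma, while 3 were at an unadjusted p under 0.05. The matching shares of all genes were 2.25% and 18.4%. The 9 myeloid, 5 T cell, 3 erythroid and 5 stromal markers measured had mean log2 levels of at most 7.85, 7.14, 6.44 and 7.46, so the lowest pre-B marker lay below the highest myeloid, T cell and stromal ones. The summed intensity of the myeloid markers was 580 to 630 on the empty vector arrays and 640 to 810 on the IKZF1 arrays, that of the T cell markers 309 to 321 and 343 to 438, that of the erythroid markers 200 to 210 and 193 to 233, and that of the stromal markers 485 to 565 and 560 to 704. With the replicate number as a block, 1 of the 9 myeloid and 1 of the 5 stromal markers passed, both higher with IKZF1. Their limma adjusted p were 0.0088 and 0.0499, and without the block 0 passed in either list. Among all genes 3.36% passed as higher with the block. The part of myeloid, T, erythroid or stromal cells in the values below was not tested.

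A ribosome has a large subunit, which forms peptide bonds, and a small subunit, which reads the mRNA, and each holds many small, mostly basic proteins around its RNA. The genes of these proteins are among the most strongly transcribed in dividing cells, and their mRNAs begin with a 5′ terminal oligopyrimidine (TOP) tract, a C followed by further C and T bases, through which the kinase mTOR and the RNA-binding protein LARP1 control their translation as one group. In pre-B cells, growth signals through mTOR and Myc raise ribosome production, and Ikaros is known to oppose proliferation at this stage. Mutations of single ribosomal protein genes cause Diamond-Blackfan anaemia, a failure of red cell production, and some recur in lymphoid leukaemia.

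Runs of C and T stand at the annotated starts of a part of these genes. RefSeq promoters (GRCm38.p6, 250 bases before to 50 after each start) matched 47 of the 59 genes, with 56 promoters in all. The first base lay inside a run of at least 6 C or T on the sense strand in 14 of the 56 promoters, against 7.25% of all 32851 promoters. A run of at least 8 C or T between 20 bases before and 30 bases after the start was present in 42.9% of the members' promoters and 19.0% of all. The stretches below, from 30 bases before to 20 after the start, are shown because they belong to genes whose values are given further on; capitals mark the C and T run that covers the start. The start shown lies 122 bases inside the gene's outermost start for Rpl7a and 87 bases for Rps9, and at the outermost start for the others.
Rpl14, chr9:120571487-120571536, plus strand: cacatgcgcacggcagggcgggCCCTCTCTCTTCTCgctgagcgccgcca
Rpl27a, chr7:109519165-109519214, plus strand: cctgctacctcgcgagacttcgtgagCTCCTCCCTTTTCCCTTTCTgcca
Rpl7a, chr2:26910777-26910826, plus strand: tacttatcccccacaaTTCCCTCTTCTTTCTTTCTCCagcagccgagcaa
Rps15a, chr7:118116128-118116177, minus strand: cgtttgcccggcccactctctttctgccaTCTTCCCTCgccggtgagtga
Rps9, chr7:3704011-3704060, plus strand: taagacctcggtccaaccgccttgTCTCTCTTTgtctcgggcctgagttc
Rps10, chr17:27635225-27635274, minus strand: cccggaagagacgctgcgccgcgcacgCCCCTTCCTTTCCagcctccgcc
Rps6, chr4:86857348-86857397, minus strand: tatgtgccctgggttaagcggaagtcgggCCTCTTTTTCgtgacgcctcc
Rplp2, chr7:141447621-141447670, plus strand: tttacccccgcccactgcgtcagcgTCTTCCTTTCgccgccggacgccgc
An annotated start is one position of several that cells use, so a promoter without such a run says only that the letters are not in this window.

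Not one of the 59 ribosomal protein genes reached the threshold used, adjusted p below 0.05 (limma with Benjamini-Hochberg adjustment over all 19936 genes), where 2.25% of all genes did, 1.12% higher and 1.13% lower in the IKZF1 group. The smallest adjusted p was 0.12. With the replicate number as a block 7.21% of all genes passed (3.36% higher, 3.85% lower) and again 0 of the 59, the smallest adjusted p being 0.071. At an unadjusted p under 0.05 there were 15 of 59 (25.4%), against 18.4% of all genes and 25.7% of 1189 other bright genes. The latter are all other genes at or above the lower quartile of the members' level, so they are not matched to the members gene by gene. Of the 15, 14 (23.7% of the 59) were lower and 1 was higher, against 8.84% lower and 9.58% higher among all genes and 14.6% lower among the other bright genes. The ribosomal protein genes thus held about as many small p-values as other bright genes; whether their split by direction differs was not tested.

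The differences were small and mostly of one sign. A total of 48 of the 59 genes had a log2 difference (IKZF1 minus empty vector) below 0, which is 81.4% where all genes gave 40.8%. The median log2 difference was -0.094, a level 6.31% lower in the IKZF1 group, and the interquartile range ran from -0.15 to -0.023. Over all genes the median was 0.035. The large and small subunits had the same median, -0.094 each, with 31 of 37 and 17 of 22 genes below 0. The standard errors of single genes, 0.052 to 0.13 with a median of 0.065, were close to the size of these differences. In bulk RNA a lower level per cell and a smaller share of cells with a high level cannot be told apart.

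**Figure D1:**
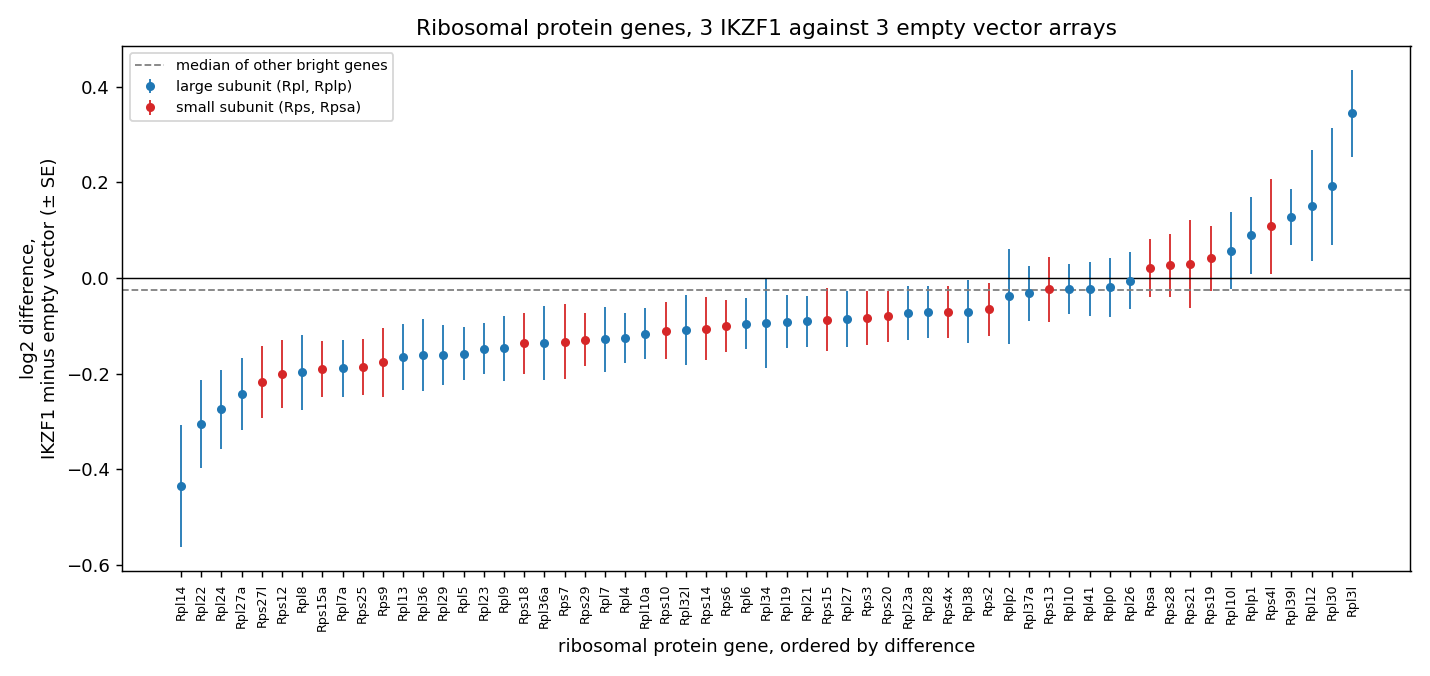
Log2 difference (vertical axis, IKZF1 minus empty vector, log2(intensity + 1) scale) with its standard error for each of the 59 ribosomal protein genes, ordered by the difference; blue marks the large subunit, red the small subunit, and the dashed line is the median of 1189 other bright genes at -0.026. A total of 48 genes lie below 0, from Rpl14 at -0.44, and the far right is held by Rpl30 and Rpl3l at 0.19 and 0.34.

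Since ribosomal protein probe sets are bright, they were set beside other bright genes. The 1189 other genes at or above the lower quartile of the members' level (a log2 level of 11.52) had a median of -0.026, with 56.9% below 0 and 3.20% past the threshold (1.68% lower). With the median of the 400 other genes nearest in level subtracted from each member, 44 of 59 members were below 0 and the median was -0.058. Only 124 of all genes had a mean log2 level over 13. For the brightest members most of the 400 were therefore dimmer, and level was matched only in part. All 3 IKZF1 arrays lay below all 3 empty vector arrays for 36 of the 59 genes (61.0%), against 21.9% of the other bright genes and 11.3% of all genes. They lay above for 2, Rpl3l and Rpl39l, against 15.7% and 15.2%. The count of 36 became 21 of 59 after quantile normalization of the deposited values, against 17.0% of the other bright genes and 12.9% of all. These shares describe genes that share arrays and carry no test of the group as such.

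On single arrays the same order appeared. The median deviation of the 59 genes from their own means over the 6 arrays was 0.045, 0.076 and 0.033 on empty vector 1, 2 and 3, and -0.032, -0.073 and -0.031 on IKZF1 1, 2 and 3, so the groups did not overlap. The extremes were empty vector 2, which held the highest of the 6 values for 29 genes, and IKZF1 2, which held the lowest for 30. IKZF1 2 stood apart over all genes too, in the other direction: its median deviation was 0.046, against -0.018 to 0.0014 on the other arrays, and it held the highest value for 7279 of the 19936 genes. Without IKZF1 2 the members' median log2 difference was -0.081, with 49 of 59 below 0, against 0.012 over all genes. The remaining IKZF1 arrays then lay below the empty vector arrays for 39 members, against 24.6% of the other bright genes and 14.7% of all genes. With fewer arrays such separation is easier: with all 6 arrays these shares were 21.9% and 11.3%. The other bright genes had median deviations between -0.023 and 0.036, with both groups overlapping. Within pairs of the same replicate number, the members' median difference was -0.075, -0.13 and -0.069, and 48, 48 and 50 of the 59 were below 0. The other bright genes had -0.036, -0.0079 and -0.027 in the same pairs, with 713, 621 and 660 of 1189 below 0, and all genes 0.0083, 0.064 and 0.013. The gap between members and other bright genes was thus smaller in pairs 1 and 3 than in pair 2. In all 3 pairs 41 members had lower values, against 20.3% of all genes and 35.7% of the other bright genes, and 3 had higher values, against 30.2% and 25.2%.

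**Figure D2:**
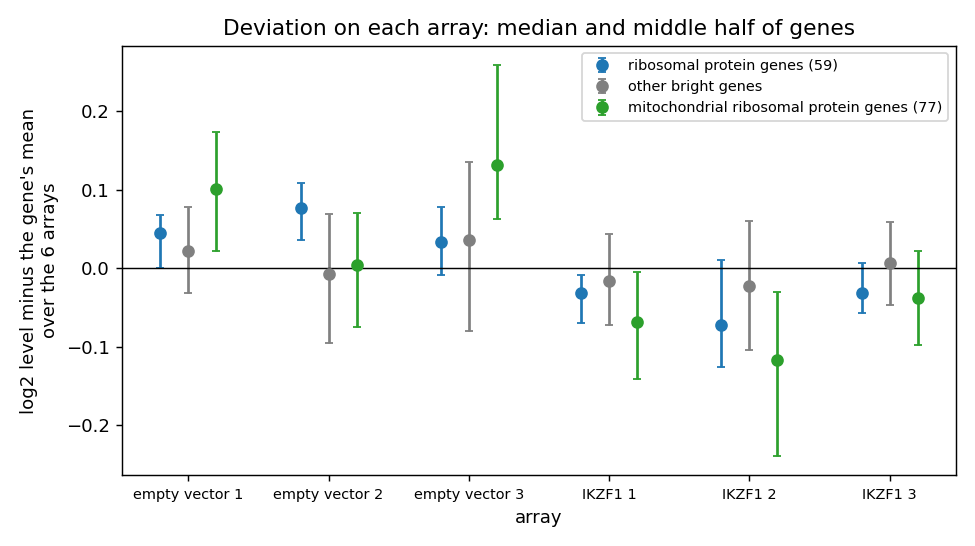
Deviation of genes on each array from their own mean over the 6 arrays (vertical axis, log2), as the median (point) and the interquartile range (bar), for the ribosomal protein genes, the other bright genes and the mitochondrial ribosomal protein genes. The ribosomal protein medians lie between 0.033 and 0.076 on the empty vector arrays and between -0.073 and -0.031 on the IKZF1 arrays.

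Most of these genes have retrocopies across the genome, and the array reads several of them under one symbol. The 59 genes were represented by 215 probe sets, up to 14 for Rps12, of which 203 had distinct values. Of the 156 probe sets that were not the brightest of their gene, 153 had a log2 difference below 0, with a median of -0.13, where 42.2% of all 21789 probe sets were below 0. Of 38 genes with distinct probe sets, the median of the others lay below the brightest in 31. A further 233 probe sets carry a ribosomal protein symbol together with other symbols; 225 of them were below 0, with a median of -0.13. Probe sets of one gene, or of near-identical copies, can bind the same transcripts, so these counts are not independent of the 59, and the signals of a gene and its copies cannot be told apart.

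Of the 215 probe sets 1 passed the threshold when all 21789 were tested, where 458 passed in all, and it belonged to Rpl7a, a large subunit protein. It read 11.38, 11.32 and 11.62 in the empty vector group and 10.77, 10.76 and 10.95 in the IKZF1 group, which is a log2 difference of -0.61 (limma adjusted p = 0.040 over probe sets). Its groups were well apart. The brightest probe set of Rpl7a, which stood for the gene, gave -0.19 ± 0.060 (SE, n = 3 per group, limma adjusted p = 0.17), so the size depended on the probe set. The start of Rpl7a, printed above, lies in a run of 21 C and T bases.

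Among large subunit genes the lowest value was that of Rpl14, which encodes a protein of the subunit surface. It read 10.01, 10.01 and 10.18 with empty vector and 9.86, 9.39 and 9.63 with IKZF1, with IKZF1 2 the lowest and no overlap. The difference was -0.44 ± 0.13 (SE; limma adjusted p = 0.15, and 0.071 with the replicate block). Rpl14 had 1 probe set. Its annotated start lies inside a run of 14 C and T bases, part of which precedes the start.

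Rpl22 encodes an RNA-binding protein of the large subunit that is dispensable for translation in general, needed for the development of T cells, and deleted in some T cell leukaemias. It read 10.24, 10.20 and 9.93 in the empty vector group and 9.77, 9.85 and 9.83 in the IKZF1 group. Empty vector 3 lay close to the IKZF1 arrays, and the groups did not overlap. The difference was -0.31 ± 0.093 (SE; limma adjusted p = 0.16, and 0.098 with the block). Rpl22 was the one member to pass under any other setting: it had -0.40 (adjusted p = 0.029) without empty vector 3 and -0.38 (adjusted p = 0.027) with array weights. Its paralog gene Rpl22l1 had no probe set with 1 symbol and was not analysed here.

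RefSeq gives Rpl22 a pair of starts, at 152324436 and at 152325726 on chromosome 4, which are 1290 bases apart. The stretch at the downstream start is shown because it holds the letters TGGGAA, a core that Ikaros binds, in capitals, beginning 8 bases before that start; the window of the upstream start holds no match.
Rpl22, chr4:152325606-152325745, plus strand: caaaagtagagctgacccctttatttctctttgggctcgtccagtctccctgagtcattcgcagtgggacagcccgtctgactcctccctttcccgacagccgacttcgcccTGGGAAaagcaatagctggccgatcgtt
TGGGAA, read on both strands over 300 bases, was found in 9 of the 56 member promoters (16.1%) and in 25.6% of all promoters, so it was not more frequent among the members. The ETS factor core CCGGAAG was found in 33.9% of the members' promoters and 8.86% of all, the SP1 core GGGCGG in 55.4% and 35.7%, and AAGATGGC, a core of the factor YY1, in 3.57% and 2.75%. No CCGGAAG match overlapped a TGGGAA match in the members' promoters. The 9 genes with TGGGAA had a median log2 difference of -0.13 and the 38 without it -0.090. For CCGGAAG the medians were -0.093 with and -0.11 without, and for GGGCGG -0.085 and -0.12, so these ran the other way. The 14 genes whose start lies in a C and T run had -0.11 and the 33 others -0.086. The 23 genes with a run of at least 8 C or T near the start had a median of -0.13 and the 24 without it -0.028, or -0.065 for 21 once the paralogs Rpl3l, Rpl10l and Rpl39l are left out. None of these contrasts was tested. A match of letters is a description and no binding site.

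Rpl24 and Rpl27a gave alike values on every probe set. Rpl24, whose loss in the mouse causes the belly spot and tail phenotype and slows Myc-driven lymphoma, read 11.47, 11.58 and 11.50 with empty vector and 11.25, 11.10 and 11.36 with IKZF1. The difference was -0.28 ± 0.083 (SE; limma adjusted p = 0.16), and its 3 probe sets gave -0.34 to -0.28. Rpl27a read 12.89, 13.01 and 12.80 against 12.61, 12.63 and 12.73, a difference of -0.24 ± 0.075 (adjusted p = 0.17), and its 9 probe sets gave -0.28 to -0.19. For both genes each IKZF1 array lay below each empty vector array. The annotated start of Rpl27a lies inside a run of 20 C and T bases, part of which precedes the start.

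Of the 5S ribonucleoprotein, Rpl5 and Rpl11 with 5S rRNA, which binds the p53 inhibitor MDM2 when ribosome assembly fails, only Rpl5 was measured. It read 13.06, 13.11 and 13.09 in the empty vector group and 12.92, 12.88 and 12.97 in the IKZF1 group, without overlap, a difference of -0.16 ± 0.056 (SE; limma adjusted p = 0.21). Its 5 probe sets ran from -0.44 to -0.16. Around the peptidyl transferase centre, where peptide bonds form, Rpl8 had -0.20 (adjusted p = 0.25) without overlap and Rpl10, mutated in T cell leukaemia, -0.023 (adjusted p = 0.83) with overlap. At the rim of the tunnel through which the new chain leaves, Rpl19, Rpl23a and Rpl26 had -0.092, -0.073 and -0.0055 (adjusted p of 0.42, 0.52 and 0.97). Rpl26 turned to 0.016 after quantile normalization and 0.032 after cyclic loess. None of these genes passed.

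The P stalk, a flexible arm of the large subunit made of Rplp0, Rplp1 and Rplp2 on the base protein Rpl12, recruits elongation factors. Its 4 genes were not one-sided on their brightest probe sets: Rplp0 had -0.020, Rplp2 -0.038, Rplp1 0.089 and Rpl12 0.15 (limma adjusted p from 0.51 to 0.88). The groups overlapped for each. The second probe sets of Rplp0 and Rplp1 gave -0.17 and -0.092, while Rplp2 and Rpl12 had 1 probe set with 1 symbol each. Further probe sets that carry Rpl12 with other symbols were not used here. Rplp1 read 13.81, 13.87 and 13.64 with empty vector and 13.80, 13.94 and 13.84 with IKZF1, so empty vector 3 was the low one. Rplp1 turned to -0.0077 with arrays centred on their medians and -0.0016 with the mean of its probe sets, and Rplp0 to 0.015 after quantile normalization. Rplp2, whose start is printed above with a run of 10 C and T bases, read 7.98, 8.04 and 7.78 against 7.85, 8.05 and 7.80. No test of the stalk against the other genes was made.

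Rpl30, a large subunit protein, and Rpl12 gave the highest values among the 55 members other than Rpl3l, Rpl10l, Rpl39l and Rps4l. Their levels lay below the members' lower quartile of 11.52. Rpl30 read 9.98, 9.76 and 10.24 in the empty vector group and 10.23, 10.13 and 10.19 in the IKZF1 group, a difference of 0.19 ± 0.12 (SE; limma adjusted p = 0.44). Rpl12 read 9.38, 9.27 and 9.63 against 9.68, 9.42 and 9.64, a difference of 0.15 ± 0.12 (adjusted p = 0.51). The empty vector arrays spread more than the IKZF1 arrays for Rpl30, with SDs of 0.24 and 0.050 (n = 3), and empty vector 3 lay above all of the latter. Each of the 2 genes had 1 probe set with 1 symbol, so each rise rests on a single probe set. Other probe sets with these symbols carry further symbols and were not used for these values. Of all 233 ribosomal protein probe sets with several symbols, 225 were below 0.

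**Figure D3:**
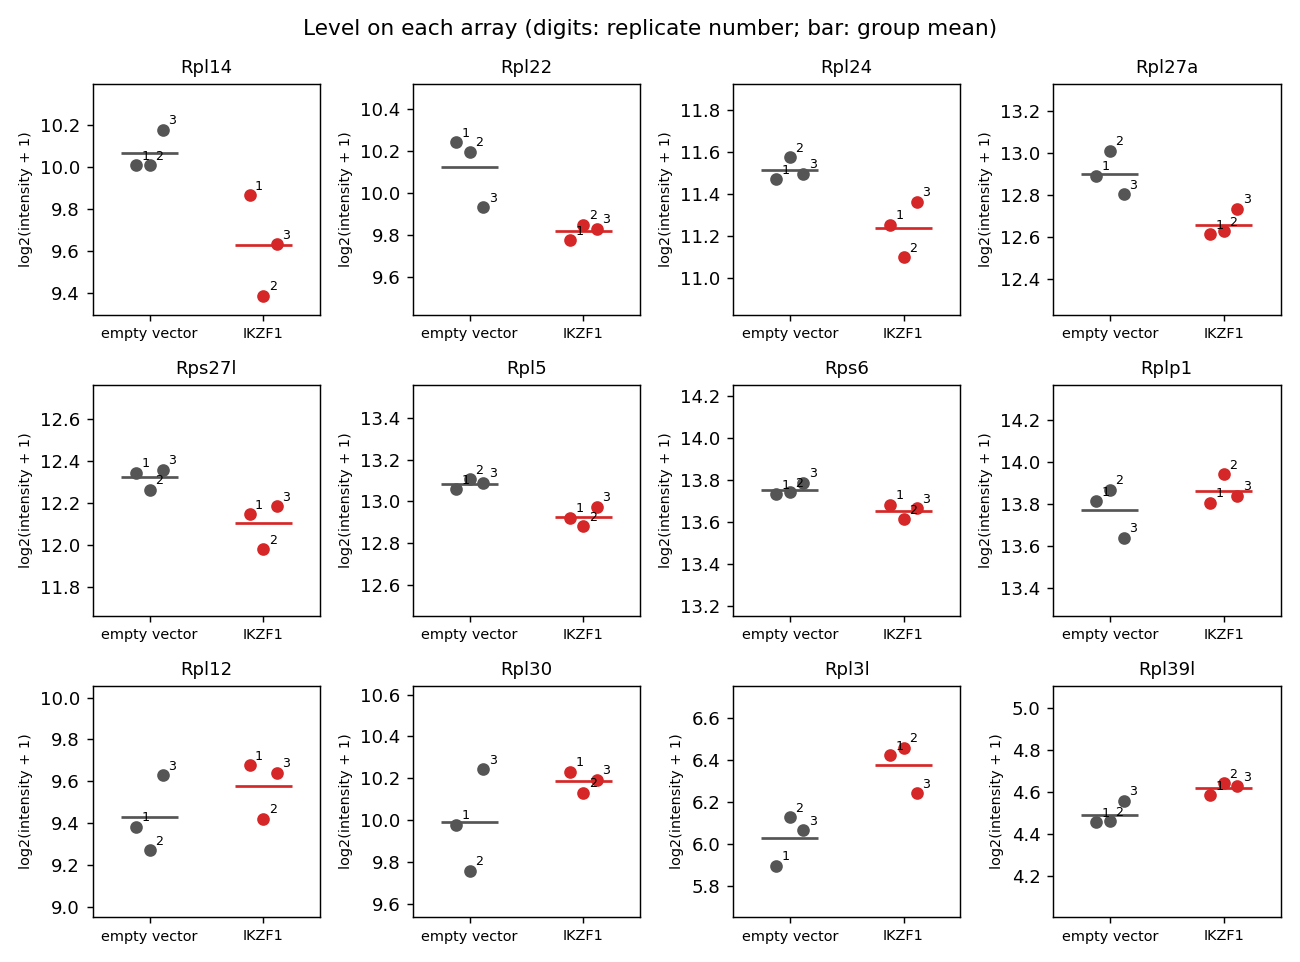
Log2(intensity + 1) on each array for 12 ribosomal protein genes; digits give the replicate number, bars the group mean, and each panel spans the same range of 1.1 log2 units. The groups do not overlap for Rpl14, Rpl22, Rpl24, Rpl27a, Rps27l, Rpl5 and Rps6 (IKZF1 lower) and for Rpl3l and Rpl39l (IKZF1 higher), and overlap for Rplp1, Rpl12 and Rpl30.

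In the small subunit, Rps6, the substrate of the S6 kinases downstream of mTOR, read 13.73, 13.74 and 13.79 with empty vector and 13.68, 13.62 and 13.67 with IKZF1. The groups did not overlap, but the gap was narrow. The difference was -0.10 ± 0.055 (SE; limma adjusted p = 0.38), and a 2-sided exact permutation test of the 6 values gave p = 0.1, the smallest that 3 against 3 allows. All 8 probe sets of Rps6 were below 0, from -0.19 to -0.086. The array measures the Rps6 transcript and not the phosphorylation of its protein.

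The genes whose proteins line the mRNA entry channel, Rps2, Rps3 and Rps9, had -0.065, -0.085 and -0.18 (limma adjusted p of 0.55, 0.46 and 0.27), each without overlap. At the mRNA exit Rps28 had 0.026 (adjusted p = 0.85) with overlap, and -0.071 with arrays centred and -0.031 with the mean of its probe sets. On the beak of the small subunit head, Rps10 and Rps12 had -0.11 and -0.20 (adjusted p of 0.37 and 0.21), each without overlap. Rps12 read 12.56, 12.65 and 12.43 in the empty vector group and 12.35, 12.33 and 12.35 in the IKZF1 group, and its 14 probe sets, 8 of them with distinct values, gave -0.23 to -0.11. Rps15, near the decoding site and mutated in chronic lymphocytic leukaemia, had -0.087 (adjusted p = 0.51) with overlap. Rps15a and Rps25, further small subunit proteins, both had -0.19 (adjusted p of 0.17 each) without overlap.

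Of 18 genes mutated in Diamond-Blackfan anaemia 8 were measured, of which 0 passed in limma, 1 had an unadjusted p under 0.05 (Rpl5) and 6 were below 0 (median -0.098). Over all genes 18.4% had an unadjusted p under 0.05 and 40.8% were below 0, and among the other bright genes 25.7% and 56.9%. Rps19, the most often mutated of them, had 0.041 (adjusted p = 0.77), and Rps7, Rps10 and Rps29 had -0.13, -0.11 and -0.13 (adjusted p of 0.41, 0.37 and 0.28). Of 5 genes mutated in lymphoid leukaemia 4 were measured (Rpl5, Rpl10, Rpl22 and Rps15); all 4 were below 0 (median -0.12), and 0 passed in limma, with 2 at an unadjusted p under 0.05.

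Of the 5 paralogs listed, 4 were dim on the array and had differences above 0. Rpl32l, a further member whose symbol ends in l, was not on that list. It had -0.11 (limma adjusted p = 0.46) without overlap. Among 1194 receptor genes of smell and pheromone sensing, taken as a gauge of background, 95% lay below a mean log2 level of 6.18. Rpl3l, a paralog of Rpl3 known from muscle, read 5.90, 6.13 and 6.07 with empty vector and 6.42, 6.46 and 6.24 with IKZF1, without overlap, a difference of 0.34 ± 0.091 (SE; limma adjusted p = 0.12, and 0.071 with the block). That was the highest value of the 59, at the edge of background, where the 400 genes nearest in level had a median of 0.094. The paralogs Rpl10l and Rpl39l, known from testis, had 0.057 and 0.13 (adjusted p of 0.73 and 0.32) at mean log2 levels of 6.21 and 6.26 and of 4.49 and 4.62 in the empty vector and IKZF1 groups, and Rps4l, a transcribed pseudogene in RefSeq, 0.11 (adjusted p = 0.59). The second probe set of Rps4l gave -0.022. Rpl10l turned to -0.038 after quantile normalization, -0.034 after cyclic loess and -0.040 with arrays centred. Without these 4, 48 of 55 genes were below 0 and the median was -0.10.

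Rps27l, a paralog of Rps27 that p53 can induce, was strongly expressed. It read 12.35, 12.26 and 12.36 in the empty vector group and 12.15, 11.98 and 12.19 in the IKZF1 group, without overlap, a difference of -0.22 ± 0.075 (SE; limma adjusted p = 0.20, and 0.096 with the block). Its main copy Rps27 was not analysed here. Of 8 measured genes of the ribosome-p53 axis, 0 passed in limma, 1 had an unadjusted p under 0.05 and 3 were below 0 (median 0.077). The last 2 shares were 18.4% and 40.8% over all genes. Mdm4 and Mdm2, which restrain p53, had 0.19 and 0.10, and the p53 target genes Sesn1 and Bbc3 0.14 and 0.11 (adjusted p from 0.25 to 0.59).

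Other genes of the translation machinery were read from lists. Over all genes, for comparison, 40.8% were below 0, 18.4% had an unadjusted p under 0.05 and 2.25% passed in limma. The other bright genes, not matched to these lists in level, gave 56.9%, 25.7% and 3.20%. Of 4 measured genes related to the ribosome but outside the symbol rule, 0 passed with limma, while 2 were under 0.05 unadjusted: Rps3a1, a small subunit protein, had -0.27 (adjusted p = 0.084), Rps19bp1, whose product binds Rps19, -0.24 (adjusted p = 0.20), Rpl7l1 -0.029 and Fau 0.020. Rpl7l1 turned to 0.0019 after cyclic loess and Fau to -0.077 with arrays centred. Rps3a1 passed with array weights (-0.29, adjusted p = 0.027). Of 17 other TOP transcripts, mostly translation factors, 16 were below 0 (median -0.085) and 0 passed in limma, with 6 at an unadjusted p under 0.05. Npm1, the nucleolar protein nucleophosmin, read 12.13, 12.07 and 12.34 with empty vector and 11.66, 11.41 and 11.72 with IKZF1, without overlap. Its difference of -0.59 ± 0.11 (SE) had an adjusted p of 0.056 and passed with the replicate block (0.014), brighter genes (0.048), cyclic loess (0.043), a trended prior (0.042) and array weights (0.018). Gas5, a noncoding TOP transcript that hosts small nucleolar RNAs, had -0.23, Eef1b2 -0.22 and Eif3l -0.19 (adjusted p from 0.15 to 0.18).

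Of 13 regulators of TOP mRNA translation 1 fell, Eif4ebp1, whose product holds back cap-dependent translation until mTOR phosphorylates it. It read 11.57, 11.51 and 11.38 in the empty vector group and 10.49, 10.61 and 10.59 in the IKZF1 group, a difference of -0.92 ± 0.073 (SE; limma adjusted p = 0.0066). The groups were far apart, although the call was lost without empty vector 1 or IKZF1 1 (adjusted p = 0.052 each). Among all genes 1.13% were lower past the threshold. Mtor had 0.27, Larp4 -0.36 and Tial1 -0.22 (adjusted p of 0.11, 0.14 and 0.24). Larp4 passed with the replicate block (adjusted p = 0.028), where 2 of the 13 were lower, against 3.85% of all genes. Mtor passed after cyclic loess (0.30, adjusted p = 0.044) and with array weights (0.27, adjusted p = 0.040).

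Of 12 chaperones and import receptors of ribosomal proteins, Pdcd2, a chaperone of Rps2, rose by 0.67 ± 0.076 (SE; limma adjusted p = 0.015) and Ipo7, a nuclear import receptor, fell by 0.38 ± 0.059 (adjusted p = 0.034). The shares past the threshold over all genes were 1.12% higher and 1.13% lower. Pdcd2 read 10.65, 10.61 and 10.43 with empty vector and 11.26, 11.18 and 11.27 with IKZF1. Ipo7 read 11.95, 11.90 and 11.93 against 11.49, 11.52 and 11.61. Neither overlapped. Pdcd2 did not pass without empty vector 1 or any 1 of the IKZF1 arrays (adjusted p from 0.056 to 0.097), nor Ipo7 without any single array other than empty vector 3 (0.082 to 0.18). Tsr2, the chaperone of Rps26, had -0.29 and the import receptor Ipo5 -0.14 (adjusted p of 0.34 and 0.46).

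Of 22 initiation factor genes outside the TOP class 1 fell and 18 were below 0 (median -0.11), against 1.13% and 40.8% of all genes. The other bright genes, not matched to this list in level, gave 1.68% and 56.9%. Eif2s2, the beta subunit of the factor that brings the initiator tRNA, fell from 11.60, 11.57 and 11.71 to 10.91, 10.92 and 10.87, a difference of -0.73 ± 0.062 (SE; limma adjusted p = 0.0069). It did not pass without empty vector 1 or IKZF1 1 (adjusted p of 0.065 and 0.056). Eif3c had -0.24, Eif2b1 -0.29 and Eif1a -0.22 (adjusted p of 0.11, 0.16 and 0.18), and Eif3c passed with array weights (-0.28, adjusted p = 0.027).

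The mitochondrial ribosome, which translates the mitochondrial genome and is encoded by a separate set of nuclear genes, was set beside the cytosolic one. Of its 77 genes 68 (88.3%) were below 0, with a median of -0.15, where 40.8% of all genes and 56.9% of the other bright genes were below 0. Neither of these sets was matched to the mitochondrial genes in level, and Mrpl24, for one, lay below the bright set's cut of 11.52. Of the 77, 3 fell and 0 rose, against 1.13% lower among all genes. Mrpl24 read 9.61, 9.66 and 9.64 in the empty vector group and 9.07, 8.72 and 9.06 in the IKZF1 group, a difference of -0.68 ± 0.10 (SE; limma adjusted p = 0.032). Mrpl52 had -0.63 (adjusted p = 0.028) and Mrps15 -0.42 (adjusted p = 0.030). With the replicate block 12 of 77 were lower, against 3.85% of all genes, among them Mrps34 (-0.36, adjusted p = 0.061 and 0.040). All 3 calls were lost without empty vector 1, empty vector 2, IKZF1 1 or IKZF1 3 (adjusted p from 0.073 to 0.17), and those of Mrpl52 and Mrps15 also without IKZF1 2 (0.067 and 0.095). Mrpl52 missed the threshold after cyclic loess as well (-0.59, adjusted p = 0.051). A high share of genes below 0 was thus seen for both ribosomes; the difference between them was not tested.

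**Figure D4:**
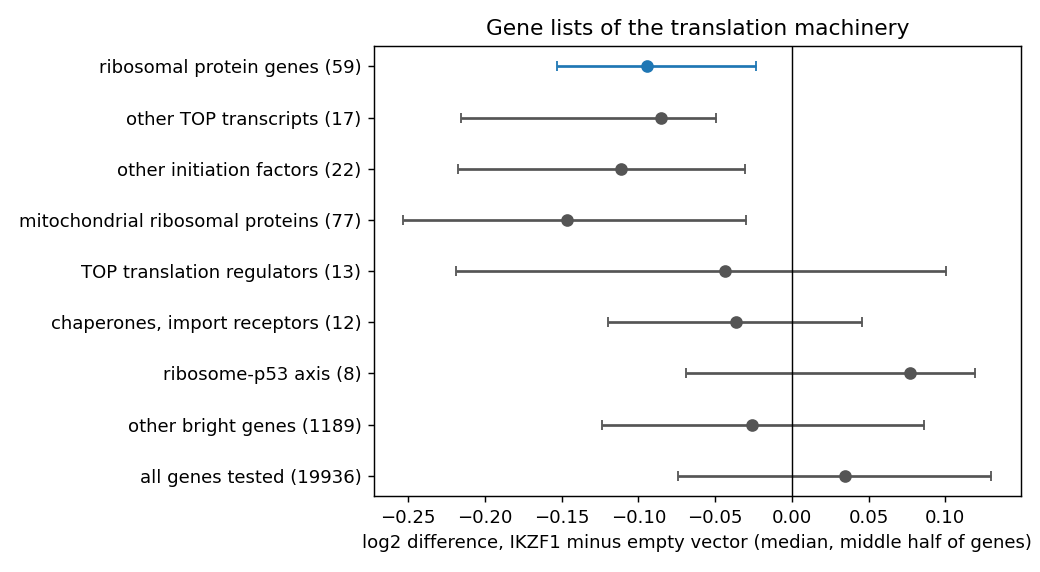
Median (point) and interquartile range (bar) of the log2 differences, IKZF1 minus empty vector, over the genes of each list, with the number of genes measured in brackets. The ribosomal protein genes have a median of -0.094, the mitochondrial ribosomal proteins one of -0.15, the other bright genes -0.026 and all genes tested 0.035.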

How the data were processed

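RNA of 6 samples, 3 per group, was measured on Affymetrix arrays. The deposited file holds linear probe set intensities, which per the submitters' processing notes were normalized with RMA; its version is not given here. Since RMA output is usually log2, the linear scale was inferred from values of 11.1 to 23523. Quantile normalization belongs to RMA and reduces shifts shared by most genes, and bright probe sets may understate differences.

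Log2(intensity + 1) was computed from the 21789 of 35421 probe sets that pair with 1 symbol in the platform's gene table (1621 pair with several, 12011 are unnamed here), updated by gene number to RefSeq. The brightest probe set stood for each of 19936 genes. The comparison used limma 3.58.1 under R 4.3.3 (group as the only term, lmFit then eBayes, 2-sided), with Benjamini-Hochberg adjustment over all genes and a threshold of 0.05, after a check on simulated data. Replicate numbers in the titles are shared by the groups. Deviations of same-numbered arrays correlated with r = 0.24, 0.60 and 0.66, all above 0.1. Those of differently numbered arrays had r from -0.68 to 0.11, the highest being empty vector 1 with IKZF1 2. Same-numbered arrays were taken as pairs in an alternative fit with the replicate number as a block, while the main p-values come from the group-only fit. Blocked values stand where a call or count among the listed genes moved.

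The members and lists were chosen with earlier results of these data known. Named were the 5 highest and 5 lowest members, the members of 7 role lists and up to 4 genes of each other list, those past the threshold first. Rpl7a, Rps15a, Rps25, Rps19 and Rpl32l were named after their values were seen, and the pre-B genes as the ends of their list's range. Other settings left out each array, or changed the pseudocount, filter, normalization, variance prior, probe set rule or array weights. Promoter sequences and coordinates are from RefSeq (GRCm38.p6).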

Additional observations from a re-analysis of the deposited data

How the results depend on the processing

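Each of the 16 other settings run gave 0 higher ribosomal protein genes, and 0 lower with 2 exceptions: 1 gene, Rpl22, passed with array weights, whose estimation stopped before convergence, and leaving out single arrays gave 0 to 1 (Rpl22 without empty vector 3). Their median log2 difference stayed below 0 under every setting: it was -0.058 after quantile normalization, -0.191 with arrays centred on their medians and -0.058 relative to genes of the same level, and between -0.106 and -0.081 when single arrays were left out. Centring moved the median of all genes from 0.035 to -0.062. The count of ribosomal protein genes with all IKZF1 arrays below all empty vector arrays was 21 after quantile normalization and 36 to 40 when single arrays were left out. Leaving out an array makes such separation easier. Of all genes 11.3% showed it with all 6 arrays, 14.7% without IKZF1 2 and 18.4% without empty vector 2. The alternatives for this count were added after the data were seen. Over all genes, 1438 passed with the replicate block, 1481 with array weights and 24 to 947 without single arrays, 24 without IKZF1 1. The replicate block changed no call among the ribosomal protein genes. Signs turned, besides those given with the results, for Rplp0 (-0.054 to 0.0024), Rplp2 (-0.11 to 0.015), Rpl26 (-0.028 to 0.022), Rpl10l (-0.0066 to 0.12), Rps28 (-0.018 to 0.066) and Rpl7l1 (-0.049 to 0.00085) when 1 array was left out, and for Rplp0 (0.015) and Rpl26 (0.016) after quantile normalization, Rpl26 (0.032) and Rpl7l1 (0.0019) after cyclic loess, Rplp1 (-0.0077), Rps28 (-0.071) and Fau (-0.077) with arrays centred, Rplp1 (-0.0016) and Rps28 (-0.031) with the mean of probe sets, and Rpl10l (-0.038, -0.034 and -0.040) after quantile normalization, cyclic loess and centring; the cause was not tested. Of the 59 genes 21 have a mean log2 level over 13, as do 124 of all genes; whether brightness reduces their differences was not tested.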
